A study of Mus musculus with 18 samples.

Results

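The early response of Sirt6 KO mast cells was measured by comparing RNA-seq libraries at level 20 with libraries at level 0. The 6 libraries were chosen by their column names, 3 for KO at 20 and 3 for KO at 0, out of 18 libraries in the series. All cells were mouse bone marrow-derived mast cells (BMMC), which are grown in culture from marrow progenitors. The KO cells carried LysM-Cre; Sirt6 flox/flox, a genotype the labels name myeloid Sirt6 KO. Here the lysozyme M promoter, active in myeloid cells, drives the Cre recombinase that cuts out the loxP-flanked part of Sirt6. The WT cells carried Sirt6 flox/flox without the Cre, so both genotypes shared the flanked alleles. The labels give no unit for the levels 0, 20 and 60. They list LPS as the treatment at 20 and 60 and list no treatment at 0, whereas the title of the series speaks of FcεRI, the high affinity receptor for IgE. The 3 libraries of each group bear the numbers 4120, 414 and 6110, and values below are given in that order. The labels do not state if a number stands for an animal of its own, and the p-values below therefore reflect differences among the deposited libraries, which can be technical. Sirt6, which encodes a nuclear NAD-dependent deacylase, was counted at 16.7 ± 2.66 CPM (CPM being the count of a gene relative to the TMM-scaled total of its library, in parts per 1e6) at 0 and 17.1 ± 3.47 CPM at 20 in KO cells (SD, n = 3). In WT cells it was at 14.6 ± 2.44 and 14.7 ± 3.50 CPM, so the KO means were not below the WT means. These gene counts include reads from any part of the transcript that was not deleted, so they check no genotype label.

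Mast cells store histamine and proteases in granules and also make cytokines, chemokines and prostaglandins anew after activation. Signals from the IgE receptor or from TLR4, the receptor for LPS, reach the nucleus through MAP kinases, NF-kB and, for the IgE receptor, calcium and calcineurin. The first genes to respond, called immediate early genes, need no new protein for their induction. They encode transcription factors such as FOS, JUN and EGR proteins, and many of their transcripts are short-lived. Feedback inhibitors of the same pathways, such as dual specificity phosphatases and IkB proteins, are induced alongside them.

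Total counts ran from 26435573 to 36473450 in the KO libraries at 0 and from 25642829 to 31232609 at 20. Counts from the 37 genes of mitochondrial DNA made up 10.2%, 27.2% and 4.09% of the total at 0, and 5.56%, 8.21% and 5.28% at 20. The means were 13.8% ± 11.9 and 6.35% ± 1.62 (SD, n = 3), with number 414 at 0 apart from the rest. A two-sided exact permutation test gave p = 0.4, and 3 against 3 libraries cannot go below 0.1. Mast cell markers summed to between 30320 and 43310 CPM at 0 and between 34380 and 48510 CPM at 20 over 15 genes, which matches the labelled cell type. The 16 macrophage markers summed to between 192 and 297 CPM at 0 and between 156 and 329 CPM at 20, most of it from Cd68 (142 and 151 CPM) and Cx3cr1 (109 and 93.4 CPM). Of these markers 13 had a mean under 1 CPM over the 6 libraries, here without TMM scaling, and C1qa and Marco had no count. Of the 16 neutrophil and precursor markers 9 had such a mean under 1 CPM, as did 17 of the 20 markers of other blood cells.

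In KO cells at level 20, 76 genes rose and 1 fell in edgeR's quasi-likelihood test at a Benjamini-Hochberg adjusted p of 0.05, out of 17159 genes tested. Called genes were 0.449% of those tested, with 0.443% for rises and 0.00583% for falls. Large rises were seen for the cytokines Tnf and Il13, the transcription factor Fos, the prostaglandin synthase Ptgs2, the transcription factor Egr2 and the phosphatase Dusp1. The median log2 fold change of the 76 genes was 3.20, against a median of −0.03 over all genes tested. Values ran from 1.12 in Tiparp to 8.46 in Tnf, apart from Csf2, which had no count at 0. In 66 genes the log2 fold change was above 2, and in 23 it was above 4. All 76 rose within each of the 3 numbers, and in all 76 the 3 libraries at 20 lay above the 3 at 0. Over all tested genes, 4.2% had no overlap in this direction and 3.9% had none in the other. The 76 were called between these same libraries, so this separation adds no support, here or for single genes below. The numbers paired the libraries (correlations of 0.40 to 0.58 between paired deviations), and with the replicate number as a block on all 18 libraries the test called 135 genes, 128 higher and 7 lower. Here and below a block held the libraries of 1 number within 1 genotype, so WT and KO libraries were not paired. With every library of number 4120 left out, in both genotypes and at all levels, 23 genes were called, and without number 414 38 were. Calls given below without a number use this same removal, which also leaves fewer libraries to estimate the spread. Without the library of 414 at 0, which had the high mitochondrial share, 54 genes were called. Of the 24 largest rises with a mean of at least 5 CPM, 12 were called under every alternative tried: Tnf, Il13, Fos, Ptgs2, Egr2, Dusp1, Nfkbid, Ccl3, Map3k8, Il6, Jun and Nr4a2.

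The responding genes started from very different levels. At 0, 12 of the 76 were under 1 CPM and 16 were at or above 100 CPM. Of the 76 genes 68 are annotated as protein-coding, or 89.5%, against 77.0% of the tested genes. The protein-coding risers were compact. Their annotated span had a median of 5.61 kb, against 22.4 kb for the 13182 tested protein-coding genes with a span. It was under 10 kb in 48 of the 68 (70.6%, against 25.8% of those tested). Gpr137c, at 63.1 kb, was the 1 gene of the 68 with a span over 50 kb, a size found in 26.1% of those tested.

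The promoters of Tnf, Fos and Dusp1 are shown because these genes rose among the most at 20 and were much lower again at 60. The sequences are the 250 bases before the annotated RefSeq start in GRCm38.p6, written 5′ to 3′ on the strand of the gene. Capitals mark matches to the TATA box letters TATAAA, the cAMP response element (CRE) TGACGTCA, its core TGACG, and the kappa B site bound by NF-kB, each searched on both strands. The window of Tnf lies at chr17:35202008-35202257 on the minus strand, that of Fos at chr12:85473640-85473889 on the plus strand and that of Dusp1 at chr17:26508473-26508722 on the minus strand.
Tnf: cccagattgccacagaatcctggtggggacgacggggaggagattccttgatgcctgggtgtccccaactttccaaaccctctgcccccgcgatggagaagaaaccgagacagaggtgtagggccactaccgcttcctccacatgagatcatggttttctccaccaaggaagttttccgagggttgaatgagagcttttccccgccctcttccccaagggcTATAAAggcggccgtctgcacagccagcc
Fos: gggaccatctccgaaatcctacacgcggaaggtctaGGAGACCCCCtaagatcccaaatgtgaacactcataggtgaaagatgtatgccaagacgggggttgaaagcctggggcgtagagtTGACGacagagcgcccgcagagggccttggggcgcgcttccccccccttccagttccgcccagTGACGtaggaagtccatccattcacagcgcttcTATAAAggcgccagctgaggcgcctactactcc
Dusp1: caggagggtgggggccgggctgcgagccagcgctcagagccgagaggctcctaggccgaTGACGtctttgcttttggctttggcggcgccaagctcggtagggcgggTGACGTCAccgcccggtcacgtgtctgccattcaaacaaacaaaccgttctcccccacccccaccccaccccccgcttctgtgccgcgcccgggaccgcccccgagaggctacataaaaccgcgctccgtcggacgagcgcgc

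In these windows Tnf has a TATA box 29 bases upstream of the start. Fos has a TATA box 33 bases upstream, 2 CRE cores and a kappa B match 214 bases upstream. Dusp1 has a full CRE 143 bases upstream and a further core. The window of Ptgs2, which rose by 6.39 on the log2 scale and is not shown, had no match to these motifs. A promoter entry was found for 54 of the 76 risen genes and for 12472 tested genes. Each of the 7 motifs searched was present in a larger share of the risen genes, and these shares were not tested. The kappa B site was present in 27.8% of the risen genes and 10.3% of the tested genes. The CRE core TGACG, which the full CRE contains, was present in 48.1% and 28.2%, and the full CRE in 7.41% and 2.72%. The TATA box was present in 18.5% and 8.83%, and the AP-1 site TGANTCA, bound by FOS and JUN dimers, in 11.1% and 6.19%. The CArG box, bound by serum response factor, was present in 5.56% and 1.36%, and the EGR site GCGGGGGCG in 9.26% and 5.0%. Such matches describe letters in the window and do not show binding.

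AU-rich letters were frequent at the 3′ ends of these transcripts. The heptamer TATTTAT is the core of AU-rich elements, to which decay factors such as the protein encoded by Zfp36 bind. It occurred at least once in the annotated 3′ UTR of 42 of 67 risen protein-coding genes (62.7%), against 28.7% of 12799 tested genes. At least 3 copies were present in 22.4% of the risen and 3.83% of the tested genes, although the median UTR lengths were similar, 1020 and 1109 bases. The density was 1.13 copies per kb in the risen and 0.284 per kb in the tested genes. Csf2 had 9 copies, Tnf 8, Ptgs2 6 and Lif 5.

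**Figure D1:**
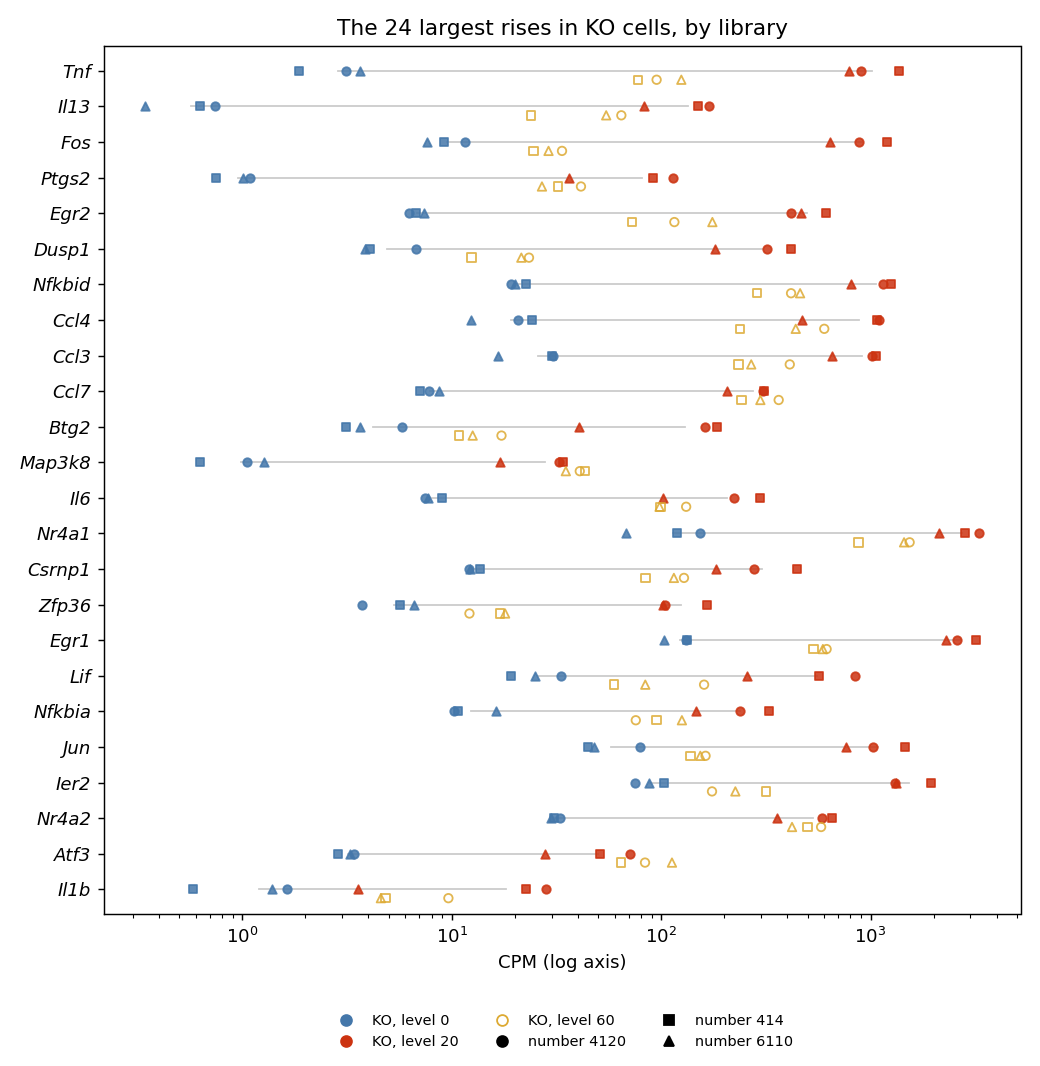
CPM per library on a log axis for the 24 largest rises with a mean of at least 5 CPM at 0 or 20, in order of log2 fold change. Colours give the level, marker shapes the number, and grey lines join the means at 0 and 20. In every gene shown the 3 red points lie to the right of the 3 blue points, and the open points at 60 lie near the blue points for Fos and Dusp1 and to the right of the red points for Map3k8.

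Immediate early genes, mainly of transcription factors, formed the largest group, on the longest of the 22 lists. Of 34 tested members of this list 18 rose and 0 fell, with a median log2 fold change of 2.35. Of the 34 values 32 were positive, against 45.8% of the values over all tested genes. Without number 4120 4 of the 34 were called, and without number 414 11 were. Fos (gene ID 14281, chromosome 12, 85473890 to 85477274) encodes a subunit of AP-1. It was counted at 11.5, 9.19 and 7.64 CPM at 0 and at 885, 1198 and 641 CPM at 20. The log2 fold change of Fos was 6.58 (SE 0.398, edgeR Benjamini-Hochberg adjusted p = 3.63e-07), with no overlap between the groups. Egr2 encodes a zinc finger factor and had 6.22, 6.78 and 7.39 CPM at 0 and 416, 610.2 and 463 CPM at 20. Its log2 fold change was 6.19 (SE 0.509, edgeR adjusted p = 8.52e-06), again without overlap. Its relatives Egr1 (4.45), Egr3 (3.004) and Egr4 (3.06) also rose. Egr1 and Egr3 already stood at 122.8 ± 16.9 and 184 ± 62.6 CPM at 0 (SD, n = 3).

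All 3 members of the NR4A family of orphan nuclear receptors rose. Nr4a1 went from 154, 119 and 67.9 CPM to 3290.0, 2812 and 2125 CPM, a log2 fold change of 4.59. Nr4a2 rose by 4.10 and Nr4a3 by 3.78 on the log2 scale. For Nr4a3 the library of number 6110 at 20 (180.2 CPM) lay well below the other 2 (489 and 605 CPM), yet above all libraries at 0. Of the AP-1 subunits, Jun rose from 57.4 ± 19.2 to 1082 ± 351 CPM and Junb from 333 ± 57.9 to 3246 ± 1237 CPM (SD, n = 3). Fosb (3.21) and Fosl2 (1.995) rose as well. Jund, with 469 CPM at 0 and a log2 fold change of 0.90 (edgeR adjusted p = 1), was not called. Btg2 (4.95), Csrnp1 (4.58), Ier2 (4.11), the stress factor Atf3 (3.97), Ier3 (3.06) and Ier5 (2.29) completed the 18. Maff, a small MAF protein, had a log2 fold change of 2.40 and missed the threshold (edgeR adjusted p = 0.0619). It passed with the replicate number as a block (edgeR adjusted p = 0.0131).

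Cytokine genes were the second group. Of 21 tested cytokines and growth factors 8 rose and 0 fell, with a median of 1.96, and with the block on all 18 libraries 11 passed. Without number 4120 4 were called, without number 414 3, and without the library of 414 at 0 5. Tnf, the gene of tumour necrosis factor (gene ID 21926, chromosome 17, 35199367 to 35202007), had 3.11, 1.87 and 3.62 CPM at 0. At 20 it had 902, 1368 and 792 CPM, a log2 fold change of 8.46 (SE 0.737, edgeR adjusted p = 1.27e-05). Every library at 20 lay far above every library at 0, and number 414 was lowest at 0 and highest at 20. Il13 (gene ID 16163, chromosome 11, 53631323 to 53634702), a cytokine of type 2 immunity, had 0.742, 0.624 and 0.344 CPM at 0 and 169, 149.9 and 82.5 CPM at 20. Its log2 fold change was 7.89 (SE 0.826, edgeR adjusted p = 5.81e-05), and number 6110 was lowest at both levels.

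Il6, which encodes a cytokine of inflammation and acute phase responses, rose from 7.48, 9.02 and 7.69 CPM to 223, 298 and 102 CPM. Its log2 fold change was 4.68 (SE 0.448, edgeR adjusted p = 2.6e-05). Lif (4.43) and Osm (3.22), which encode cytokines that also signal through the gp130 receptor chain, rose as well. Osm varied among numbers at 20, with 275, 172 and 55.4 CPM. Csf1, the macrophage growth factor, was already at 353 ± 139 CPM at 0 and reached 1279 ± 215 CPM (SD, n = 3). Il1b (3.89) had 28.1, 22.6 and 3.55 CPM at 20, so that number 6110 was close to the level at 0. Its edgeR adjusted p was 0.0189, and it did not pass with the block on the 6 libraries (edgeR adjusted p = 0.164).

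Csf2, which encodes GM-CSF, had no count in any library at 0 and 215 counts over the 3 libraries at 20. Against a floor of 3 counts over the group, Csf2 was at least 82.7-fold higher at 20, from a low mean of 2.42 ± 2.05 CPM (SD, n = 3). The values at 20 were 4.54, 2.25 and 0.458 CPM, highest in number 4120, and without that number the bound was at least 30.5-fold. Csf2 was not called without number 4120, without number 414, in a fit of the 6 libraries alone or by limma-voom. Areg, which encodes the growth factor amphiregulin, also had no count at 0 and was at least 31.5-fold higher at 20 by the same floor. Without number 4120 its bound was at least 18.3-fold, and it was not called (edgeR adjusted p = 0.192). These bounds cover counting error only. Tnfsf14, a member of the TNF ligand family, had a log2 fold change of 1.96 that did not pass (edgeR adjusted p = 0.379). It passed with the block on the 6 libraries (edgeR adjusted p = 0.0377) but not with the block on all 18 (edgeR adjusted p = 0.0751).

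Of 10 tested chemokines 4 rose and 0 fell, with a median of 3.31. Without number 4120 the count was 1, Ccl3. Ccl3 and Ccl4, which encode chemokines that attract leukocytes, share part of their annotated span on chromosome 11, so reads in the shared stretch cannot be told apart. Ccl3 had 30.5, 30.2 and 16.6 CPM at 0 and 1021, 1065 and 656 CPM at 20 (log2 fold change 5.15, SE 0.470, edgeR adjusted p = 1.84e-05). Ccl4 had 20.8, 24.2 and 12.4 CPM at 0 and 1093, 1068 and 472 CPM at 20 (log2 fold change 5.52, edgeR adjusted p = 0.00154). The monocyte attractants Ccl7 and Ccl2 rose by 5.13 and 2.90 on the log2 scale. Ccl2 started from 155 ± 36.9 CPM and Ccl7 from 7.83 ± 0.806 CPM (SD, n = 3). Ccl1 (3.72, edgeR adjusted p = 0.0857) and Cxcl2, with no count at 0 and at least 49.4-fold higher at 20 (at least 26.7-fold without number 4120 and 27.4-fold without 6110), were not called. Both passed with the block on all 18 libraries (edgeR adjusted p = 0.0068 and 0.0358), which raised the count to 6 chemokines.

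Ptgs2 encodes cyclooxygenase-2, the inducible enzyme of prostaglandin synthesis (gene ID 19225, chromosome 1, 150100031 to 150108234). It had 1.08, 0.748 and 1.01 CPM at 0 and 114, 91.8 and 36.2 CPM at 20. The log2 fold change was 6.39 (SE 0.497, edgeR adjusted p = 7.43e-06), and it was the 1 called gene of 9 tested in prostaglandin and leukotriene synthesis. The constitutive Ptgs1 had −0.01, and the 5-lipoxygenase gene Alox5, at 606 CPM at 0, had 0.38 (edgeR adjusted p = 1 for both).

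Inhibitors of the signalling pathways rose next to the effectors. Of 17 tested MAPK feedback inhibitors 6 rose, with a median of 1.55. Without number 4120 the count was 1, and without number 414 it was 2. Dusp1, a phosphatase that inactivates p38 and JNK (gene ID 19252, chromosome 17, 26505591 to 26508472), had 6.77, 4.08 and 3.83 CPM at 0. At 20 it had 320.2, 415 and 181 CPM (log2 fold change 5.96, SE 0.559, edgeR adjusted p = 2.17e-05). Dusp5 (3.19), Dusp6 (3.15) and Dusp4 (2.62), which act mainly on ERK, rose too. So did the receptor kinase antagonists Spry1 (2.82) and Spry2 (1.55). Dusp4 and Spry1 did not pass with the block on the 6 libraries (edgeR adjusted p = 0.134 and 0.0729). Dusp8 had 2.63 and just missed the threshold (edgeR adjusted p = 0.05004).

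In the NF-kB list 4 of 20 genes rose, and 1 was called without number 4120. They were the IkB family members Nfkbid (5.69), Nfkbia (4.26) and Nfkbiz (3.65), and Tnfaip3 (2.84), which encodes the ubiquitin editing enzyme A20. Nfkbid had 19.1, 22.7 and 20.1 CPM at 0 and 1142, 1249 and 805 CPM at 20. Tnfaip3 had 850.2, 737 and 180.4 CPM at 20 against 82.3 ± 26.0 CPM at 0 (SD, n = 3), and with the block on all 18 libraries it lost its call (edgeR adjusted p = 0.0672). The subunit genes themselves were not called. Nfkb1 had a log2 fold change of 0.31 and Rela 0.44 (edgeR adjusted p = 1 for both). Map3k8, a kinase that links NF-kB signalling to ERK, rose from 0.981 ± 0.326 to 27.9 ± 9.49 CPM (SD, n = 3), a log2 fold change of 4.80. It was the 1 called gene of 16 in the list of TLR4 and its adaptors, where the median was −0.06.

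Among 10 tested mRNA decay factors 3 rose. Without number 4120 1 was called and without number 414 0 were. They were Zfp36 (4.54) and Zfp36l1 (1.69), which encode proteins that bind AU-rich elements, and Zc3h12a (1.46), which encodes the endonuclease regnase-1. Zfp36 had 3.71, 5.66 and 6.59 CPM at 0 and 104, 165 and 102 CPM at 20. Zfp36l2 had 0.99 and was not called (edgeR adjusted p = 0.221). It passed with the block on all 18 libraries (edgeR adjusted p = 0.0318) but not with the block on the 6 libraries (edgeR adjusted p = 0.3065). In the list of cytokine signal feedback 2 of 12 rose, the STAT5 feedback inhibitor Cish (2.01) and the kinase gene Pim3 (1.52), and neither was called without number 4120 or without number 414. Of 8 RGS genes, which encode proteins that shorten G protein signals, Rgs1 rose (2.29) and was not called without number 4120. Rgs2 missed the threshold at 2.16 (edgeR adjusted p = 0.0562) and passed with the block on all 18 libraries (edgeR adjusted p = 0.00255), where 3 of the 8 were called. Rcan1, a calcineurin inhibitor, had 2.19 (edgeR adjusted p = 0.164) and passed with the same block (edgeR adjusted p = 0.00813), as the 1 of 11 genes of calcineurin and NFAT.

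**Figure D2:**
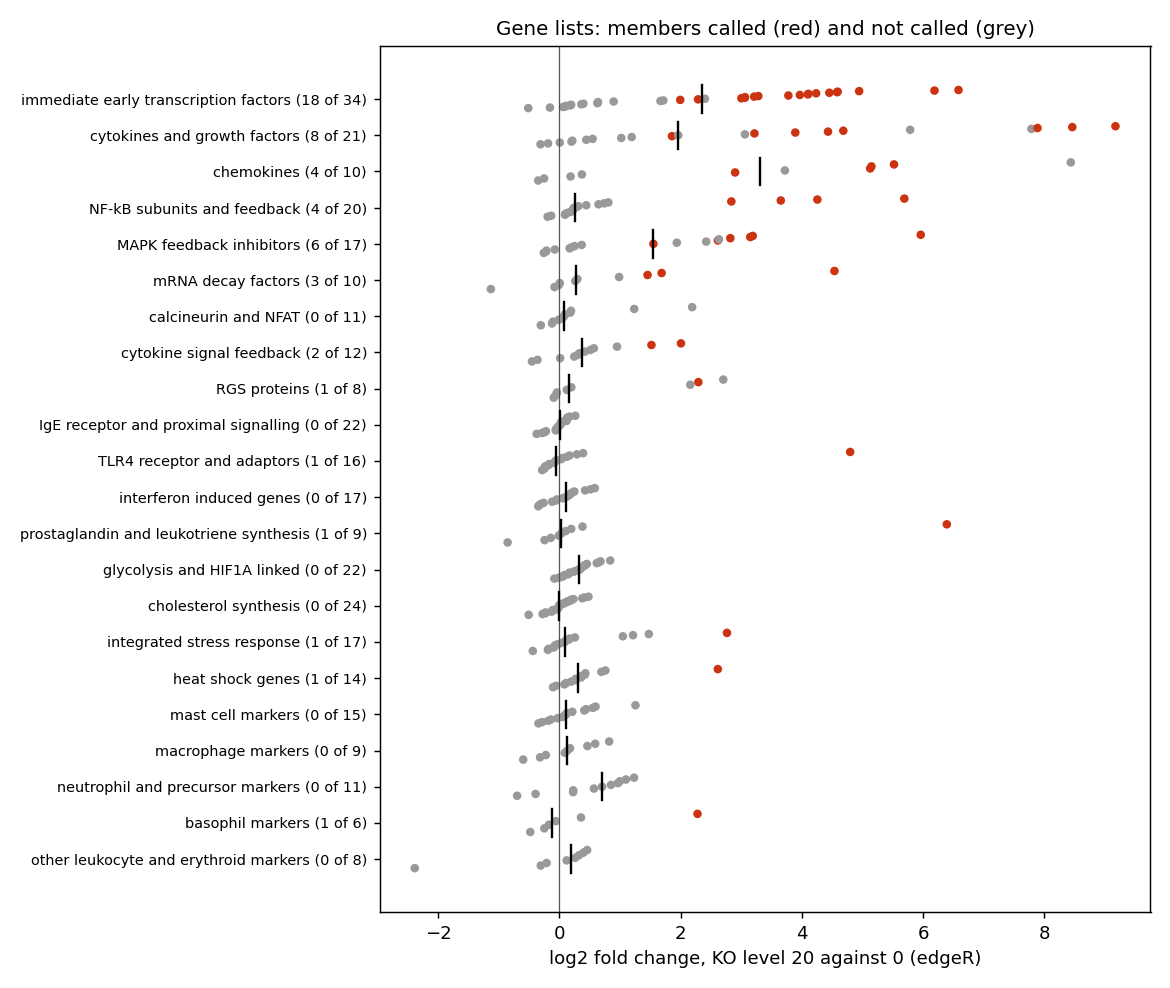
Log2 fold change (edgeR, level 20 against 0 in KO cells) of every tested member of 22 gene lists, with called genes in red and others in grey. The vertical ticks are list medians, and labels give called and tested genes. Of the 22 lists, the one labelled immediate early transcription factors has the most called genes, 18 of 34. The members of the IgE receptor list lie between −0.37 and 0.26.

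Much of the mast cell programme showed no called change at 20. None of 22 tested genes of the IgE receptor and its proximal signalling was called, with log2 fold changes between −0.37 and 0.26 and a median of 0.01. Fcer1a, the ligand-binding receptor chain, had 0.12 and Ms4a2, the beta chain, −0.28 (edgeR adjusted p = 1 for both). None of 15 mast cell markers was called. Hdc, which encodes the histamine-forming enzyme, had the largest value among them, at 1.26 (edgeR adjusted p = 1). It was called with the block on all 18 libraries (edgeR adjusted p = 0.0044). Kit, the stem cell factor receptor, had −0.34. No gene was called among 17 interferon induced genes (median 0.10), 22 genes of glycolysis (0.33) or 24 of cholesterol synthesis (−0.00). In the integrated stress response 1 of 17 rose, the phosphatase subunit Ppp1r15a (2.77). In heat shock genes 1 of 14 rose, the co-chaperone Dnajb1 (2.62), which was not called without number 4120 or without number 414.

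Markers of other blood cells gave few calls. Of the tested markers 0 of 9 for macrophages, 0 of 11 for neutrophils and precursors and 0 of 8 for other cells were called. The neutrophil and precursor markers had a median log2 fold change of 0.70, with 9 of 11 positive, against 45.8% of all tested genes. Their sum ran from 10.9 to 52.4 CPM at 0 and from 18.1 to 69.5 CPM at 20, and their part in the results was not tested. The basophil markers summed to between 188 and 225 CPM at 0 and between 319 and 399 CPM at 20. That list held 1 called gene of 6, Cd69, a lectin that leukocytes express early after activation, at 2.28 (not called without number 4120). Cd69 is part of these sums and went from 42.1 ± 10.4 to 204 ± 69.9 CPM (SD, n = 3). The other 5 markers had log2 fold changes between −0.48 and 0.36. In bulk samples, fewer cells of a type and less RNA per cell cannot be told apart.

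Of the 76 risen genes 51 stood on a list and 25 on none. The latter included the stress response gene Gadd45b (3.28), Phlda1 (3.24), the pseudokinase gene Trib1 (2.95), the small GTPase gene Gem (2.80), the kinase gene Plk3 (2.65), the cell cycle inhibitor gene Cdkn1a (2.07) and the G protein-coupled receptor gene Gpr171 (2.22). Phlda1 was called under every alternative tried, Gem under 12 of 22 and Cdkn1a under 11. Gadd45b, Trib1, Gem, Cdkn1a and Gpr171 were not called without number 4120 or without number 414. Plk3 was not called without number 414 or without number 6110. Gpr171 lies within Med12l, which had −0.07. Tulp2 (3.24) overlaps Ppp1r15a, and LOC105244150 (2.32) overlaps Nr4a2. The strand of the counting is not given, so the reads of these pairs cannot be told apart. The 1 called fall was the non-coding Gm41842, which lies inside Exoc6 and went from 1.08 ± 0.326 to 0.238 ± 0.0369 CPM (SD, n = 3). Its log2 fold change was −2.16, and it was not called with the block on the 6 libraries (edgeR adjusted p = 0.165).

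Several small RNA genes were among the rises. The libraries were made from mRNA, so these reads come from the locus of the hairpin and do not measure mature miRNAs. Mir132 and Mir212 lie 203 bases apart on chromosome 11 (75173682 to 75173747 and 75173388 to 75173478). Mir132 rose from 0.314, 0.416 and 0.551 CPM to 2.78, 3.82 and 2.72 CPM, and Mir212 from 0.286, 0.540 and 0.574 CPM to 3.56, 4.16 and 2.38 CPM. Both had a log2 fold change of 2.84 and non-overlapping groups, from 45 and 48 counts over the libraries at 0. Mir132 was not called without number 4120, 414 or 6110, and Mir212 not without 4120 or 414. Ovca2, whose annotated end nearest the pair is 2195 bases away, rose by 2.06 with the smallest SE among the risen genes, 0.168 (17.5 ± 0.472 to 72.8 ± 10.1 CPM, SD, n = 3), whereas Dph1, which overlaps it, had −0.39 (edgeR adjusted p = 1). Mir27a rose by 2.65 and did not pass with the block on the 6 libraries (edgeR adjusted p = 0.088). The mature 3p sequences are shown with the seed, bases 2 to 8, in capitals, because miR-132-3p and miR-212-3p share theirs. They are from RefSeq, GRCm38.p6.
miR-132-3p: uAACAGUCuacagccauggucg
miR-212-3p: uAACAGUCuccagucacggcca
miR-27a-3p: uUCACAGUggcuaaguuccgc

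Mir6935 (3.53) and the small nucleolar RNA gene Snora31 (3.53) lie inside Actg1 and Tpt1. These host genes had log2 fold changes of 0.81 and 0.12 (edgeR adjusted p = 1 for both). Mir6935 was near the floor, with 15 counts over the 3 libraries at 0. It went from 0.139 ± 0.0617 to 1.68 ± 0.266 CPM (SD, n = 3). It lost its call when number 4120, 414 or 6110 was left out. Within numbers 4120, 414 and 6110 Actg1 had differences of 2.06, 1.28 and −0.17 on the log2 scale and Mir6935 had 3.17, 3.21 and 2.37. Tpt1 had within-number values of 0.13, 0.03 and 0.23. Snora31 had 1.66, 0.873 and 0.597 CPM at 0 and 14.3, 12.4 and 9.47 CPM at 20.

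Levels per transcript length, in the deposited TPM (abundance scaled by transcript length and library total), order the genes differently from fold changes. Junb had the highest mean of the 76 at 20, 3340 ± 975 TPM (SD, n = 3), followed by Ccl2 (2779 ± 640 TPM), Ccl4 (2508 ± 1031 TPM), Ier3 (2394 ± 824 TPM) and Ccl3 (2226 ± 535 TPM). The differences between neighbours in this order were smaller than their SDs. Tnf had 1178 ± 224 TPM at 20 and 3.58 ± 1.82 TPM at 0. Ccl2 and Junb, the genes with the highest TPM at 20, were already at 387 and 350.4 TPM at 0.

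The 3 numbers gave unequal values over the 76 genes. At 20, number 6110 had the lowest CPM in 64 of the 76 genes and number 414 the highest in 43. The median log2 difference within a number was 3.27 for 4120, 3.38 for 414 and 2.81 for 6110. In WT cells the same genes gave 2.90, 3.52 and 2.45, so number 6110 had the lowest median in both genotypes. The smallest within-number difference came from 6110 in 56 genes, from 4120 in 18 and from 414 in 2. None of these counts was made over all tested genes, and the 76 genes are not independent measures of a number. Number 6110 also had the largest total count and the lowest mitochondrial share at both levels in KO cells. The part of depth and mitochondrial share in this order was not tested.

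Level 60 was set beside these values for the same genes. The comparison of 60 with 20 uses the same libraries at 20, so it is not independent of the rises. It called 191 genes over all (1.11% of those tested), 129 higher (0.752%) and 62 lower (0.361%). With scaling by library size alone this was 33, with 16 higher and 17 lower. Of the 76 genes 58 had a lower mean at 60 than at 20, 18 had a higher mean, and in all 76 the mean at 60 was above that at 0. The 76 were chosen for high values at 20 and low values at 0. This choice favours both a mean at 60 below that at 20 and a mean at 60 above that at 0. Fos fell from 908 ± 279 to 29.0 ± 4.53 CPM (SD, n = 3), a log2 change of −4.96 (edgeR adjusted p = 7.53e-06). Dusp1 fell by 3.995, Tnf by 3.37, Btg2 by 3.25, Zfp36 by 2.98 and Jun by 2.83 on the log2 scale, the other largest called falls of genes with at least 5 CPM. Junb fell by 2.24 and Ier2 by 2.68. Fos, Jun and Junb encode AP-1 subunits, Dusp1 a phosphatase and Zfp36 a decay factor. The 3 libraries at 60 lay below the 3 at 20 in each of these 8 genes. They were named as called falls between the same libraries, so this separation adds no support.

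Other genes held their level or went higher. Egr3 had 1477 ± 382 CPM at 20 and 1380.0 ± 382 CPM at 60, Nr4a2 had 533 ± 156 and 501 ± 79.5 CPM, and Ccl7 had 274 ± 58.8 and 301 ± 61.0 CPM (SD, n = 3), with log2 changes between −0.10 and 0.14 (edgeR adjusted p = 1 for each). Srxn1, which encodes sulfiredoxin, an antioxidant enzyme, rose from 182, 191 and 224 CPM at 0 to 771, 577 and 497 CPM at 20. It reached 2214, 1474 and 2270.0 CPM at 60, a further log2 change of 1.69 (edgeR adjusted p = 0.0181). Nr4a3 had means of 425 ± 219.6 CPM at 20 and 1246 ± 298 CPM at 60 (SD, n = 3), and this difference did not pass (edgeR adjusted p = 0.34). Dnajb1 had 402 ± 65.7 and 799 ± 200.3 CPM (edgeR adjusted p = 0.429).

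**Figure D3:**
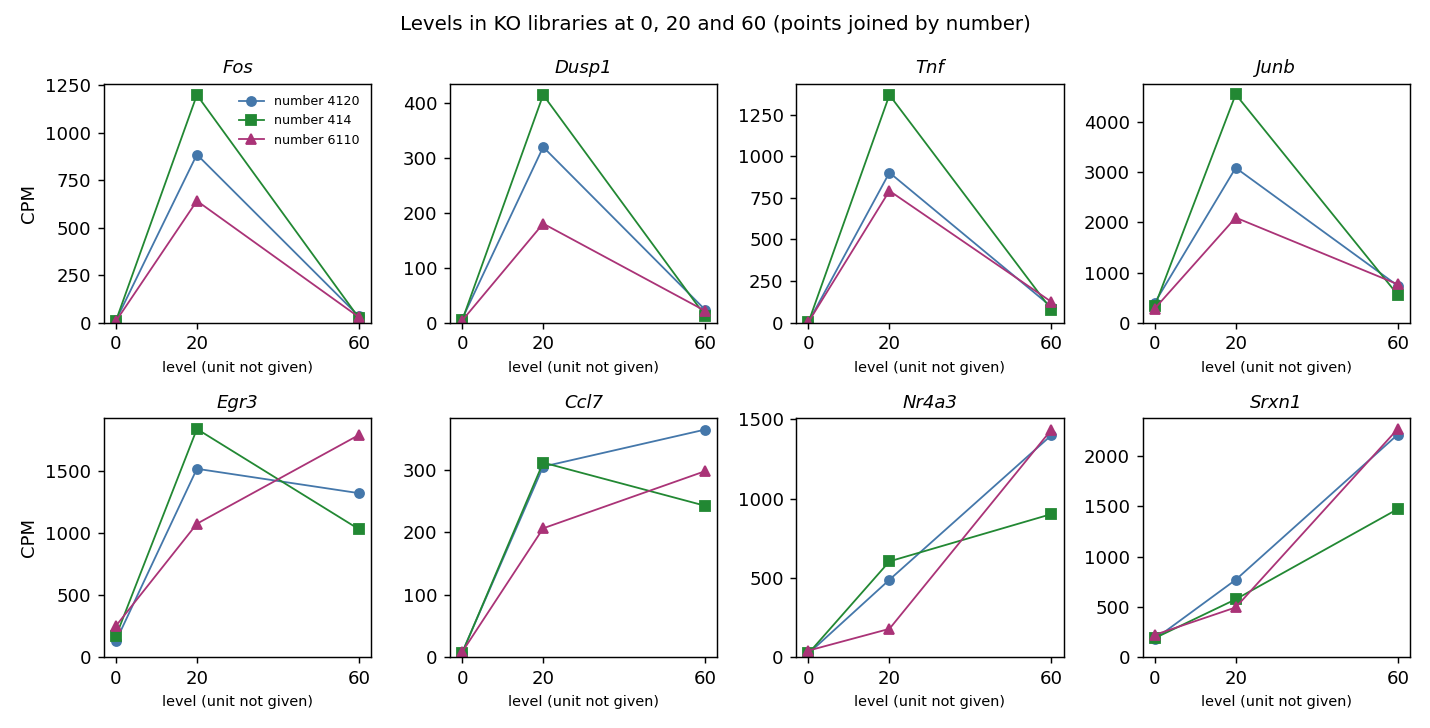
CPM of 8 genes in the KO libraries at levels 0, 20 and 60 on a linear axis, each line joining the 3 libraries of 1 number. Fos, Dusp1, Tnf and Junb peak at 20 in every number, Egr3 and Ccl7 stay high at 60, and Nr4a3 and Srxn1 are highest at 60 in every number.

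The response was then set beside that of WT cells, which share no library with it. In WT cells 103 genes rose and 0 fell (0.6% of those tested). Leaving out genes under 5 CPM such as Csf2, the largest rises in WT were Il13 (8.73), Tnf (6.79), Ptgs2 (6.27), Ccl4 (5.70), Dusp1 (5.52) and Fos (5.45). Called rises in both genotypes numbered 71, which is 93.4% of the KO list and 68.9% of the WT list, and all 76 KO rises had positive values in WT. The difference between the responses, tested directly as an interaction, gave 0 called genes (0.0%) in edgeR, with 68 genes at an unadjusted p under 0.05, 1 call by DESeq2 and 0 by limma-voom. Over the 76 genes the difference ran from −0.85 to 2.76 on the log2 scale apart from Csf2, with a median SE of 0.574. The 76 were chosen by their rise in KO cells, which favours values above 0, so no direction is read from them. A difference that misses the threshold does not show that the genotypes respond alike.

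The gene with the smallest p for the difference was Tagap1 (gene ID 380608, chromosome 17, 6954965 to 6961565), a gene named for a GTPase activating protein of activated T cells. In KO cells it had 7.48, 8.15 and 10.03 CPM at 0 and 45.8, 81.3 and 71.3 CPM at 20. This was a log2 fold change of 2.95 (SE 0.298, edgeR adjusted p = 4.11e-05). In WT cells it was already at 54.0 ± 16.6 CPM at 0 and was at 61.5 ± 19.4 CPM at 20 (SD, n = 3), a log2 fold change of 0.19. The difference of 2.76 (SE 0.399) had an edgeR adjusted p of 0.0627. Its edgeR adjusted p was 0.0368 with the replicate number within each genotype as a block on all 18 libraries. It was 0.151 with that block on the 12 compared libraries and 5.68e-07 by DESeq2, so the call depends on the model. The 2 genotypes thus had 8.55 ± 1.32 and 54.0 ± 16.6 CPM at 0 and 66.1 ± 18.3 and 61.5 ± 19.4 CPM at 20 (SD, n = 3). Tagap, a close copy on the same chromosome, rose in both genotypes, by 3.18 in KO and 3.65 in WT, and reads shared between the copies make both values uncertain.

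The 4 next smallest p for the difference belonged to Gm42090, LOC115487209, Gm8752 and Gm38850, with unadjusted edgeR p of 0.00239, 0.0047, 0.005 and 0.00606 and an adjusted p of 1 each. Gm42090 and LOC115487209 had no count in WT cells at 0 and 0.263 and 0.374 CPM at 20, against 0.337 and 0.229 CPM in KO cells at 0, so these values rest on few counts. For Gm8752 and Gm38850 the difference was −2.46 and −2.86, with WT means of 0.125 and 0.172 CPM at 0.

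**Figure D4:**
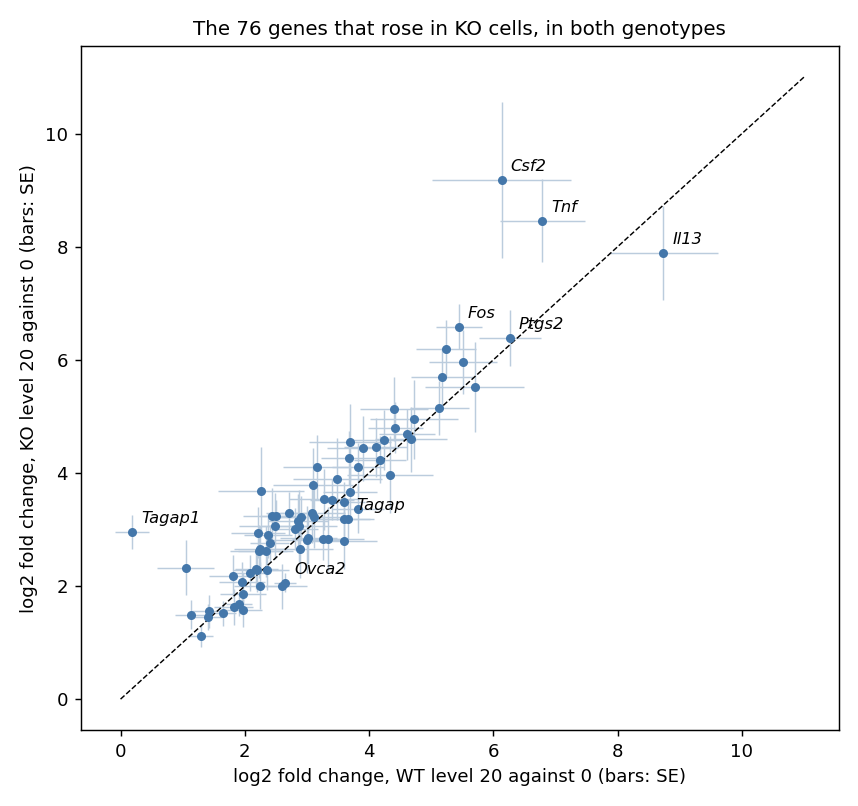
Log2 fold change at level 20 against 0 in KO cells (vertical) and WT cells (horizontal) for the 76 genes that rose in KO, with bars of 1 SE and a dashed line of equal response. The values run along the line, and Tagap1 stands far above it with 2.95 in KO and 0.19 in WT.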

How the data were processed

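RNA from cultured mast cells was extracted with Trizol and made into TruSeq mRNA libraries, per the labels' protocols. Tools listed in the submitters' processing notes are HISAT2 2.1.0, StringTie 2.1.3b, bcl2fastq 2.20.0 and FastQC 0.11.7, with mm10 as the build, and the strand setting is not given in the sources used here. The deposited table holds raw read counts per gene together with TPM and FPKM values, per the file headers. Counts were used for all tests, the authors' TPM values for levels between genes and for 1 alternative, and the deposited FPKM values were not used. The table listed 45777 genes, of which 99.8% matched RefSeq by gene ID.

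Counts were analysed in R 4.3.3 with edgeR 4.0.16 (filterByExpr, TMM scaling, quasi-likelihood F test) on all 18 libraries with 1 mean per group, leaving 17159 genes. P-values were adjusted by Benjamini-Hochberg over these genes at a threshold of 0.05. CPM values used TMM-scaled library sizes, and the standard error was the log2 fold change divided by the square root of F. Log2 differences within a number were taken after adding 0.1 CPM to each value. Alternatives used DESeq2 1.42.0 and limma 3.58.1, the other scalings and filters, and left out each library or number. Leaving out a number removed its libraries in both genotypes and at all levels. The scripts were tested on simulated data. Within the KO groups and the WT groups at 0 and 20, no pair of libraries agreed within sampling noise. Same-numbered libraries deviated together, with correlations of 0.48, 0.58 and 0.40 for numbers 4120, 414 and 6110 between KO at 0 and 20. In the block alternatives each block therefore held the libraries of 1 number within 1 genotype. The deepest and shallowest of the 6 libraries hold 36473450 and 25642829 counts, and 3 counts in 1 library come to between 0.0823 and 0.117 CPM. Promoters and miRNAs came from RefSeq GRCm38.p6 tables and 3′ UTRs from GENCODE M21.

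Genes named were the 24 largest called rises with a mean of at least 5 CPM, called members of the lists and up to 4 abundant members of each list. Ovca2, Snora31, Mir6935, Gm41842, Tagap, Trib1 and other called genes outside this rule were chosen after their values were seen, as were Maff, Rgs2, Rcan1, Dusp8, Ccl1, Cxcl2, Areg, Tnfsf14 and Zfp36l2. Members and lists were chosen with earlier results of these data known.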

Additional observations from a re-analysis of the deposited data

How the results depend on the processing

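The direction of all called genes named in the report for KO at 20 against 0 held under every alternative tried, and 19 of the 76 rises were called under all 22. The replicate number as a block changed the count of calls for KO at 20 against 0 from 77 to 135 on all 18 libraries (128 higher, 7 lower) and to 105 on the 6 libraries, where 9 rises lost their call. DESeq2 called 138 (135 higher). Leaving out libraries or numbers gave between 23 and 76 calls, 23 to 75 higher and 0 to 2 lower, the fewest without number 4120. The 1 lower call became 3 by DESeq2, 2 with the block on the 6 libraries, by TPM or with the mitochondrial share as a covariate. It became 0 in the 6 libraries alone, by limma-voom, without a filter or at an adjusted p of 0.01.

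For WT the 103 calls became 385 with the replicate block on the compared libraries, 189 with the block on all 18, 46 with compared groups only, 200 by DESeq2, 69 by library size alone, 57 by TPM and 59 at 0.01, and 22 to 101 in leave-outs, the fewest without number 4120 (22) and number 414 (28). For the difference between genotypes, 0 became 1 (Tagap1) with the replicate block on all 18 libraries, by DESeq2, without a filter and at a minimum of 1 CPM, and 0 to 1 in leave-outs. For 60 against 20 the 191 calls became 346 and 975 with the replicate block on the compared and on all libraries, 97 with compared groups only, 543 by DESeq2, 33 by library size alone, 122 without a filter, 9 by TPM and 36 at 0.01, and 1 to 66 in leave-outs, with 1 left without number 4120. Scaling by library size alone moved the median of all genes for 60 against 20 from 0.01 to −0.20 on the log2 scale. Of uncalled genes, Sirt6 changed sign from 0.04 to −0.047 with the mitochondrial covariate, and leave-outs ran from −0.14 without KO at 20 of number 6110 to 0.19 without number 4120. Fcer1a changed from 0.12 to −0.032 with that covariate, and leave-outs ran from −0.057 to 0.26, without KO at 0 of 4120 and of 414. The cause of these shifts was not tested.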

Other observations

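In WT cells 32 genes rose at 20 that were not called in KO cells. All 32 had positive values in KO, against 45.8% of all tested genes. The KO log2 fold changes were 2.63 for Dusp8, 2.40 for Maff, 2.16 for Rgs2 and 2.11 for the salt-inducible kinase gene Sik1. Their edgeR adjusted p-values in KO were 0.05004, 0.0619, 0.0562 and 0.133. The circadian gene Per1 had 1.23 and the histone demethylase gene Kdm6b 1.32 in KO. Pdzd8 had 0.95 in KO and 1.86 in WT, a difference of −0.90 with an unadjusted edgeR p of 0.0159 and an adjusted p of 1. These genes were chosen after their values were seen.

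The 5 genes called in KO and not in WT were Tagap1, Ier3, Snhg8, LOC105244150 and LOC115488833. With the replicate number as a block on the 6 KO libraries, LOC105244150 and LOC115488833 lost their KO calls (edgeR adjusted p = 0.0517 and 0.149). In WT, Ier3 had 2.48 (edgeR adjusted p = 0.0753) and Snhg8, a host gene of a small nucleolar RNA, had 1.13 (edgeR adjusted p = 0.056).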
